A study of Rattus norvegicus with 12 samples.

Results

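The basement membrane and microfibrillar collagens examined here were 8 genes: the type IV chains Col4a1, Col4a2 and Col4a5, and the chains Col6a1, Col6a3, Col14a1, Col15a1 and Col18a1 of types VI, XIV, XV and XVIII. They were represented by every probe set that the annotation of the RAE 230A array assigned to a single member gene, which gave 11 of the 15923 probe sets on the array. Whole lung RNA came from 12 male Wistar rats aged 12 weeks, each on an array of its own. The 5 normal animals had received buffer intraperitoneally at 8 weeks of age, and streptozotocin, which destroys the insulin-producing beta cells, had been given to the 7 diabetic animals at that age, 4 weeks before. Both lungs were taken after an overnight fast, so each value averages over all cell types of the lung, and fewer cells of a type cannot be told apart from less RNA per cell.

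Collagens are triple-helical proteins of the extracellular matrix. Type IV chains join into the sheet that underlies alveolar epithelium and capillary endothelium, where the barrier for gas exchange is thinnest. Type VI collagen forms beaded microfibrils between the basement membrane and the interstitium, type XIV sits on the surface of interstitial fibrils, and types XV and XVIII are proteoglycans of the basement membrane zone whose C-terminal fragments, restin and endostatin, act on blood vessels. The comparison asked whether the transcripts of these matrix layers differed between normal and diabetic lung, and whether the type IV chains differed from the others.

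The type IV genes Col4a1 and Col4a2 lie head to head in the rat genome. The stretch between their annotated starts is 76 bases long (chr16:84885521-84885596, build GRCr8, plus strand, RefSeq), reads towards Col4a1, and is shown because both chains are transcribed away from it and because their signals are compared animal by animal further on. The windows of 250 bases before the starts of Col15a1 (chr5:66297296-66297545, plus strand) and Col18a1 (chr20:11473395-11473644, plus strand) are shown as those of the members with the most negative group differences. Capitals mark the GC box GGGCGG and the CCAAT box CCAAT on either strand; the marked matches do not overlap.
Col4a2-Col4a1: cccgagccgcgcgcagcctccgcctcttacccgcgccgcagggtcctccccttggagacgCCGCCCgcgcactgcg
Col15a1: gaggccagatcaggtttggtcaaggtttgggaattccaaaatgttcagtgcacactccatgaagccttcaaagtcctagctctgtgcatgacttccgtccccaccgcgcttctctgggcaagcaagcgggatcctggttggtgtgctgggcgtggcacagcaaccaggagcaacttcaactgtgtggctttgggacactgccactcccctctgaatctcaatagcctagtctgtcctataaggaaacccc
Col18a1: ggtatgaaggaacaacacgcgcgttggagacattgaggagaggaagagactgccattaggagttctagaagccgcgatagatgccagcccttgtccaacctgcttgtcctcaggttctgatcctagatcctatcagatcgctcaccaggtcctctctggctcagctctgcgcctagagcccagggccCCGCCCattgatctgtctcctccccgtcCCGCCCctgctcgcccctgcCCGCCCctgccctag

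The stretch between Col4a2 and Col4a1 held 1 GC box, on the minus strand, and the Col18a1 window held 3. Of the 7 members with a window in the table, the windows of Col4a1, Col4a2, Col4a5 and Col18a1 held a GC box, whereas those of Col6a1, Col6a3 and Col15a1 held 0. Across all 33469 rat windows 30.5% held it. The windows of Col4a1 and Col4a2 both include the stretch between them. The GC box of that stretch is the only 1 in the Col4a1 window and is counted for both genes. A CCAAT box was found in the windows of Col4a1 and Col4a2, against 34% of all windows. The TATA box TATAAA was found in 0 of the 7, against 12.9% of all windows. Such matches describe the letters of these windows and not the binding of a factor.

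The lung label matched the arrays. The surfactant gene Sftpc had MAS 5.0 signals of 21483.6 to 30073.2 over the 12 arrays, the club cell gene Scgb1a1 18571.0 to 28182.5 and the type I cell gene Ager 5760.1 to 10514.6. The signal is an intensity computed per probe set and scaled by the authors to a trimmed mean of 500 on every array. Median signals were 259.6 to 272.0 in normal and 252.7 to 265.6 in diabetic lung. Diabetic animal 6 had the lowest mean correlation with its own group (0.948, against 0.963 to 0.971 in the other 6). The log2 differences of Col15a1 and Col6a3 are therefore also given without it. For GAPDH, the signal of the 3' control probe set divided by the 5' one, a quotient that depends on RNA integrity, was 1.23 to 1.44 in the normal animals and 1.1 to 1.3 in the diabetic ones (p = 0.00505 in a two-sided exact permutation test), where the highest diabetic value was that of animal 6 and the other 6 were 1.1 to 1.17, while that of beta-actin was 1.63 to 2.75 and 1.77 to 2.85 (exact permutation test, p = 0.884). The part of RNA integrity in the differences below was not tested beyond a model with the GAPDH ratio.

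Signals of the 5 genes of types VI, XIV, XV and XVIII lay lower in diabetic lung, but 0 of the 10 member probe sets tested passed an adjusted p of 0.05 in limma, where 0.168% of all 9520 probe sets tested did, and 0.0735% on the lower side. At an unadjusted p under 0.05 in limma there were 6 of 10, all of them lower and all from these 5 genes. Among all probe sets 16.4% reached that p in either direction and 8.68% on the lower and 7.75% on the higher side. Of the 10, 9 had a log2 difference below 0, against 52.8% of all. The log2 differences of these 6 probe sets ran from -1.0 to -0.30 with a median of -0.47, against a median of -0.01 over all probe sets tested. The 4 type IV probe sets had log2 differences of -0.12 to 0.04 with a median of -0.07, and 0 had an unadjusted p under 0.05. Of the 11 member probe sets, the dimmer Col14a1 probe set lay under the filter on low signals, at 170.0, and was not tested.

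**Figure D1:**
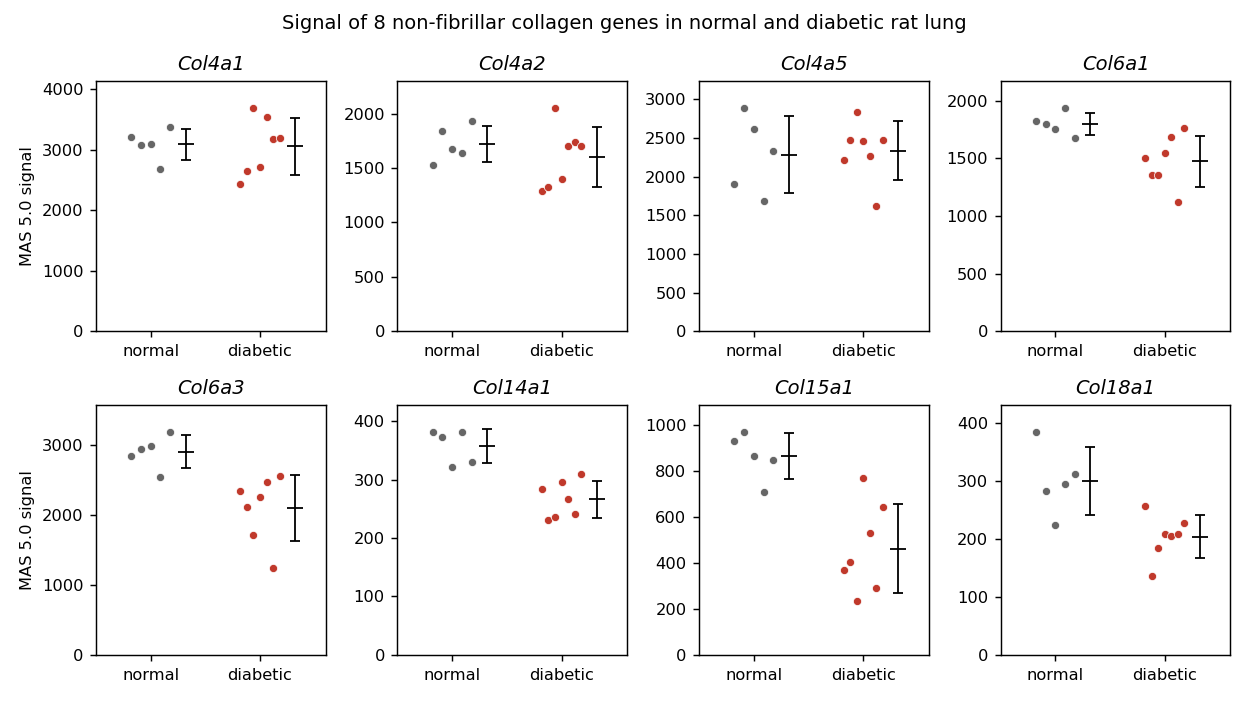
MAS 5.0 signal (linear axis from 0) of the brightest probe set of each of the 8 genes in 5 normal (grey) and 7 diabetic (red) animals, 1 point per animal, with the mean and SD beside the points. The groups are apart for Col14a1 alone (322.2 to 382.1 against 230.1 to 308.9), as for 1.11% of all probe sets tested on the lower side. They overlap for each of the other genes, type IV or not.

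Col15a1, the type XV chain that bridges basement membranes to nearby fibrils, had the largest difference of the 8 genes. Its signal was 931.5, 971.5, 863.5, 708.4 and 849.1 in the 5 normal animals, and the lowest, median and highest of the 7 diabetic animals were 232.9, 404.1 and 769.1. Of the diabetic animals 6 lay below every normal animal, and only diabetic animal 4, at 769.1, lay within the normal range. The mean was 865 ± 101 (SD, n = 5) in normal and 463 ± 194 (SD, n = 7) in diabetic lung, which is 53.5% of normal. The log2 difference was -1.0 (SE 0.24, 95% confidence interval -1.51 to -0.50, adjusted p = 0.0747 in limma). It was the fourth lowest log2 difference of the 9520 probe sets, of which 0.042% lay at or below it. The coefficient of variation was 41.8% between diabetic and 11.6% between normal animals. Without diabetic animal 6 the log2 difference was -0.91 (adjusted p = 0.0955 in limma). Col15a1 is among the genes the study itself selected on these animals, so its values are not independent of that choice.

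Col18a1 encodes the chain of the related type XVIII collagen, a heparan sulfate proteoglycan of epithelial and vascular basement membranes and the parent of endostatin. Its brighter probe set read 385.2, 282.1, 223.8, 295.3 and 311.4 in normal lung, and the lowest, median and highest diabetic signals were 136.0, 207.7 and 256.5. The ranges overlapped, with 5 of 7 diabetic animals below every normal animal. The log2 difference was -0.56 (SE 0.16, 95% confidence interval -0.89 to -0.23, adjusted p = 0.111 in limma), and 0.798% of all probe sets lay at or below it. The dimmer probe set read 295.3, 238.1, 240.5, 240.4 and 308.0 in normal lung, against 162.2, 199.8 and 234.8 as the lowest, median and highest in diabetic lung. Here the groups did not overlap, as for 1.11% of all probe sets tested on the lower side and 2.04% in either direction, and the log2 difference was -0.38 (SE 0.12, adjusted p = 0.145 in limma). The log2 differences of the 2 probe sets were -0.18 apart (exact permutation test, two-sided, p = 0.438). A p of this size does not show that the 2 probe sets changed equally. Both are dim and lie close to the signal of the filter.

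Col14a1, whose product decorates the surface of interstitial fibrils, had the smallest p of the members. The brighter probe set read 382.1, 372.1, 322.2, 380.7 and 330.5 in normal lung, and the diabetic animals had a lowest, median and highest signal of 230.1, 266.2 and 308.9. All 7 diabetic animals were below all 5 normal animals, as for 1.11% of all probe sets tested on the lower side and 2.04% in either direction. The mean was 358 ± 28.9 (SD, n = 5) and 266 ± 31.5 (SD, n = 7), a log2 difference of -0.43 (SE 0.10, 95% confidence interval -0.65 to -0.22, adjusted p = 0.0729 in limma). The dimmer probe set, under the filter, had a mean of 195 ± 34.1 (SD, n = 5) in normal and 146 ± 28.5 (SD, n = 7) in diabetic lung. Its log2 difference was -0.42, so the 2 probe sets of the gene differed by 0.01. On the dimmer probe set the groups overlapped, with 3 of 7 diabetic animals below every normal animal.

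Type VI collagen is a heterotrimer, and of its chains Col6a3 differed more than Col6a1 in the point estimate. Col6a3 read 2841.4, 2948.4, 2985.9, 2548.4 and 3192.2 in normal lung, while in diabetic lung the lowest, median and highest signals were 1248.5, 2253.6 and 2560.5. The ranges overlapped through diabetic animal 7 and normal animal 4 alone, and 6 of 7 diabetic animals lay below every normal animal. The log2 difference was -0.50 (SE 0.15, 95% confidence interval -0.81 to -0.18, adjusted p = 0.124 in limma), and -0.38 without diabetic animal 6, the lowest of the group. Col6a1, the chain that pairs with it, read 1828.1, 1800.8, 1756.4, 1938.8 and 1677.5 in normal lung and 1120.8, 1502.0 and 1764.2 as the lowest, median and highest in diabetic lung. Here 5 of 7 diabetic animals lay below every normal animal, and the log2 difference was -0.30 (SE 0.10, adjusted p = 0.162 in limma). The remaining chain of the trimer, Col6a2, which is not a member, had a log2 difference of -0.21 (SE 0.12, adjusted p = 0.377 in limma) on its brightest probe set.

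**Figure D2:**
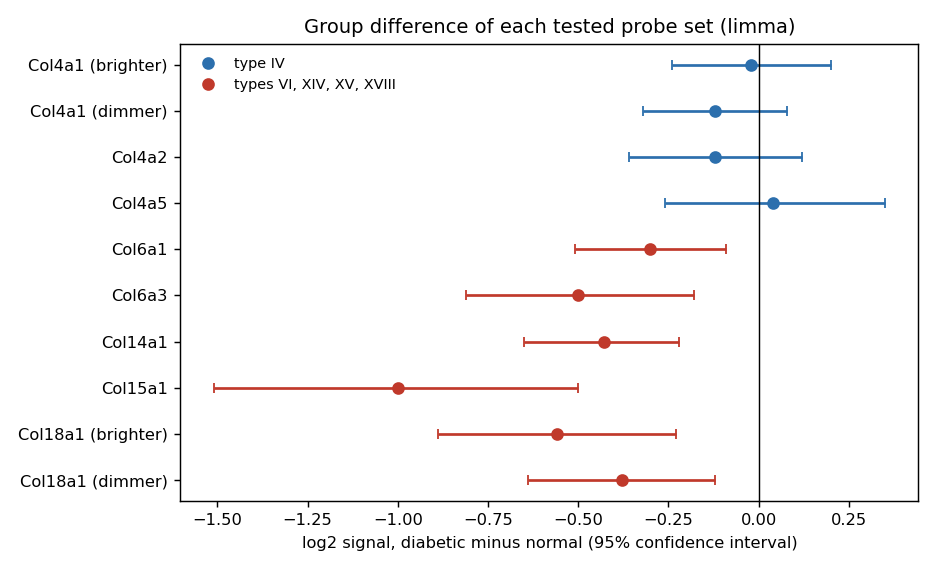
Difference in log2 signal, diabetic minus normal, with its 95% confidence interval from limma, for the 10 member probe sets tested (blue: type IV, red: types VI, XIV, XV and XVIII). The intervals of the 4 type IV probe sets include 0, and the 6 others run from -1.0 for Col15a1 to -0.30 for Col6a1 with intervals below 0; 0 of the 10 passed an adjusted p of 0.05.

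The type IV chains showed no difference that passed the test. Col4a1, a chain of the ubiquitous basement membrane network, read 3204.7, 3075.1, 3093.9, 2670.3 and 3374.6 in normal lung on its brighter probe set, and 2427.9, 3178.3 and 3688.1 as the lowest, median and highest in diabetic lung. The diabetic animals thus spread to both sides of the normal range. The log2 difference was -0.02 (SE 0.10, 95% confidence interval -0.24 to 0.20, adjusted p = 0.932 in limma). The dimmer probe set gave -0.12 (SE 0.10, 95% confidence interval -0.32 to 0.08, adjusted p = 0.565 in limma). Col4a2, its partner in that network, read 1526.7, 1844.1, 1678.1, 1636.5 and 1932.0 in normal lung and 1291.0, 1704.4 and 2054.1 as the lowest, median and highest in diabetic lung. Again the diabetic range enclosed the normal one, with a log2 difference of -0.12 (SE 0.11, 95% confidence interval -0.36 to 0.12, adjusted p = 0.64 in limma). Col4a5, a chain of the specialised network of alveolar and glomerular basement membranes, read 1899.9, 2888.3, 2608.3, 1689.5 and 2334.2 in normal lung, and its diabetic signals had a lowest, median and highest value of 1612.7, 2465.8 and 2838.4. Its coefficient of variation in normal lung, 21.6%, was the highest of the 8 genes on the brightest probe set, and the log2 difference was 0.04 (SE 0.14, 95% confidence interval -0.26 to 0.35, adjusted p = 0.915 in limma). The lowest bound of these 4 intervals is -0.36, so a log2 difference as large as that of Col15a1 lay outside each of them. The smaller difference of Col6a1, -0.30, lay inside the intervals of Col4a2 and of the dimmer Col4a1 probe set.

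A model with the GAPDH 3' to 5' ratio as a covariate, chosen after seeing the data, moved the members in different ways and called 3.03% of all probe sets, 288 of 9520, against 16 without it. Col6a3 was at -1.11 (adjusted p = 0.00324 in limma) and Col15a1 at -1.64 (adjusted p = 0.0217 in limma), the 2 members that passed. The adjusted p was smaller for Col6a1 as well (-0.52, adjusted p = 0.0717 in limma), and larger for Col14a1 (-0.49, adjusted p = 0.12 in limma) and Col18a1 (-0.49, adjusted p = 0.32 in limma) than without the covariate. Of the type IV chains, Col4a1 and Col4a2 were both at -0.02, and Col4a5 was at -0.46 (adjusted p = 0.153 in limma). Diabetic animal 6, the 1 diabetic animal with a ratio in the normal range, also had the lowest Col6a1, Col6a3 and Col4a5 signals and the second lowest Col15a1 signal of its group, and the part of that animal in these values was not tested.

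To set the type IV chains against the others directly, the log2 ratio of 2 genes on the same array was compared between groups for each of the 15 pairs of a type IV gene with a gene of the other types. Such a ratio does not depend on the scaling between arrays. The 15 ratios are built from the same 8 genes and are not independent of each other. The members were chosen with earlier results of these data known, and Col15a1 was selected by the study on these animals. The p values of the ratios are therefore not independent of that choice. All 15 ratios were lower in diabetic lung, 8 had an exact permutation p under 0.05, and 0 passed after Benjamini-Hochberg adjustment over the 15 pairs, the smallest adjusted p being 0.0505 and the smallest p that the 792 splits allow being 0.00126. Col15a1 over Col4a5 was the single ratio without overlap between groups, with a difference of -1.05 (SE 0.30, exact permutation test, two-sided, p = 0.00379, adjusted p = 0.0505). Against Col4a1, the difference was -0.98 (SE 0.33) for Col15a1 (exact permutation test, p = 0.0101, adjusted p = 0.0505) and -0.53 (SE 0.20) for Col18a1 (exact permutation test, p = 0.029, adjusted p = 0.0805). It was -0.48 (SE 0.22) for Col6a3 (exact permutation p = 0.0417, adjusted p = 0.0805), -0.41 (SE 0.16) for Col14a1 (exact permutation p = 0.0366, adjusted p = 0.0805) and -0.28 (SE 0.16) for Col6a1 (exact permutation p = 0.131, adjusted p = 0.152). Over all other probe sets tested, 1.52% had a lower ratio to this Col4a1 probe set at an exact p under 0.05, and 5.37% differed in either direction. No such share was computed for ratios to Col4a2 or Col4a5. The count of 0 pairs became 7 without diabetic animal 1, which has the lowest Col4a1 signal of its group, 3 without diabetic animal 4, and 6 when the ratios were tested with limma.

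**Figure D3:**
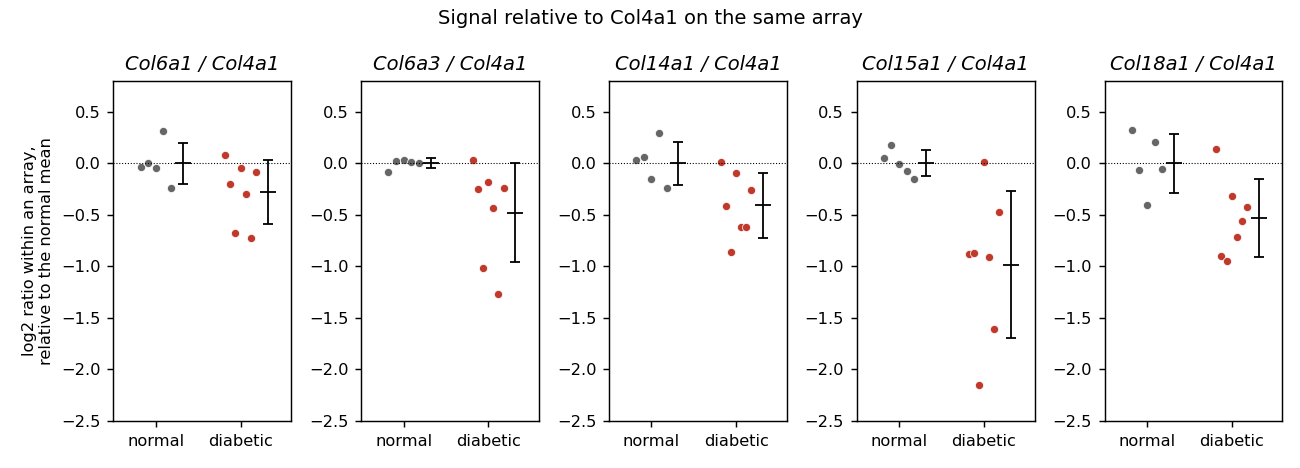
Log2 ratio of each gene of types VI, XIV, XV and XVIII to Col4a1 on the same array, relative to the mean of the normal animals, with 1 point for each of 5 normal (grey) and 7 diabetic (red) animals, means and SDs beside them. The difference between groups runs from -0.28 for Col6a1 to -0.98 for Col15a1, and in each panel at least 1 diabetic animal is not below all normal animals.

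Animal by animal, all 5 genes of types VI, XIV, XV and XVIII were below their normal mean in each of the 7 diabetic animals. The share of all probe sets with this pattern was not computed. The 5 genes share their arrays, so their values are not independent of each other. Relative to the normal mean, the average log2 signal of these 5 genes was -0.11 to 0.12 in the normal and -0.90 to -0.24 in the diabetic animals, while that of the 3 type IV genes was -0.23 to 0.16 and -0.26 to 0.29. Diabetic animal 3 showed the widest gap between them. On the brightest probe sets it had the highest signal of its group for all 3 type IV genes and the lowest for Col15a1. It was second lowest there for Col6a1, Col6a3, Col14a1 and Col18a1. On the dimmer probe sets it was the median of its group for Col18a1 (199.8), and for Col14a1 (144.3) it lay above diabetic animals 6 and 7. Diabetic animal 6 was lowest for Col6a1, Col6a3 and Col4a5. Diabetic animals 4 and 7 lay nearest to normal, at -0.30 and -0.24 over the 5 genes.

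**Figure D4:**
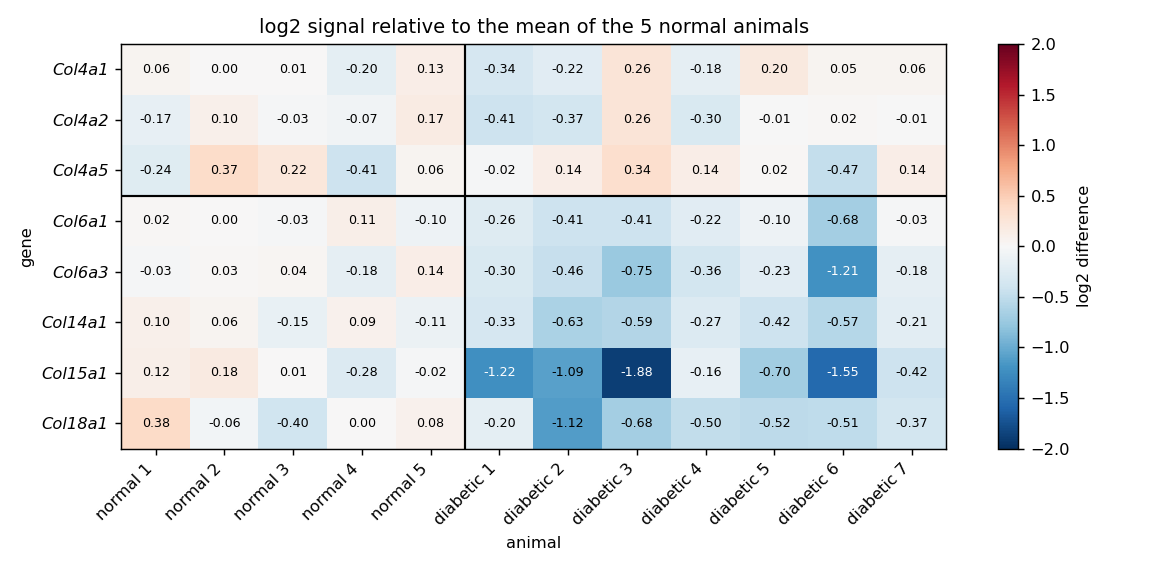
Log2 signal of the brightest probe set of each gene (rows) in each of the 12 animals (columns), relative to the mean of the 5 normal animals, with blue for lower and red for higher values. In the 7 diabetic columns every value of types VI, XIV, XV and XVIII is negative, from -1.88 (Col15a1, diabetic animal 3) to -0.03 (Col6a1, diabetic animal 7), and type IV values have either sign.

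Correlation among the 7 diabetic animals was computed for 3 pairs of members, 2 of them chains of the same trimer. For Col4a1 and Col4a2, which share the stretch of sequence shown above, Pearson's r over the 7 diabetic animals was 0.957 (exact permutation test, p = 0.00159, adjusted over 3 pairs p = 0.00238). Spearman's rho was 0.857 (exact permutation p = 0.0238, adjusted p = 0.0357), and r was 0.909 without diabetic animals 1 and 2, those farthest from the median. Of the other probe sets tested, 0.042% had an r with Col4a1 at or above that of Col4a2. For Col6a1 and Col6a3, whose genes lie on different chromosomes, r was 0.938 (exact permutation test, p = 0.000595, adjusted p = 0.00179) and rho 0.964 (exact permutation p = 0.00278, adjusted p = 0.00833), with r = 0.818 without diabetic animals 6 and 7. At or above that r with Col6a1 lay 0.42% of the probe sets. Col6a2 had an r of 0.924 with Col6a1 and of 0.912 with Col6a3 over the same animals, given as a description with no test, and 0.641% and 2.07% of the probe sets reached these values. For Col15a1 and Col18a1, which encode related proteins that form separate homotrimers, r was 0.209 (exact permutation test, p = 0.679, adjusted p = 0.679) and rho 0.321 (exact permutation p = 0.498, adjusted p = 0.498), with r = 0.098 without diabetic animals 3 and 4, and 38.1% of the probe sets had an r with Col15a1 at or above that of Col18a1. The values for Col18a1 are those of its brighter probe set, which is dim. Diabetic animal 2 was the lowest of its group on that probe set, at 136.0, and the highest on the dimmer one, at 234.8. No r with the dimmer probe set is given, so the low r may depend on the probe set. The signals of a pair come from the same array and share its RNA and scaling. No correlation was computed over the 5 normal animals.

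Other genes of the matrix were counted from lists written with earlier results of these data known. For these counts, 8.68% of all probe sets tested were lower and 7.75% higher at an unadjusted p under 0.05 in limma. A log2 difference below 0 was found for 52.8% of all probe sets tested. Of 5 fibril-forming collagen genes tested, 5 were lower at an unadjusted p under 0.05 and 0 passed the adjusted threshold in limma, with a median log2 difference of -0.94. The interstitial chains Col1a1 and Col3a1 were at -1.06 (SE 0.25, adjusted p = 0.076 in limma) and -0.97 (SE 0.25, adjusted p = 0.0926 in limma), and the type V chains Col5a1 and Col5a2, which set fibril diameter, at -0.59 and -0.51. Of 16 basement membrane partners tested (laminins, nidogens, perlecan and others), 15 lay below 0, 4 were lower and 0 higher at an unadjusted p under 0.05, and 0 passed the adjusted threshold in limma, with a median of -0.17. Those 4 were Pxdn, the peroxidase that makes the sulfilimine bonds of type IV collagen, at -0.43 (SE 0.10, adjusted p = 0.0701 in limma), the matrix glycoprotein gene Fbln1 at -0.86 (SE 0.20, adjusted p = 0.0729 in limma), and the laminin alpha chain genes Lama2 at -0.34 and Lama4 at -0.23. The signal of Pxdn was 3648 ± 353 (SD, n = 5) in normal and 2718 ± 345 (SD, n = 7) in diabetic lung. Of 17 genes of collagen maturation, 4 were lower and 1 higher at an unadjusted p under 0.05 and 0 passed the adjusted threshold in limma (median -0.06). They comprise the prolyl isomerase gene Ppib (-0.25), the collagen chaperone gene Serpinh1 (-0.40), the crosslinking oxidase gene Loxl1 (-0.73) and the prolyl isomerase gene Fkbp10 (-0.26), all among the lower, and the higher one was the lysyl hydroxylase gene Plod1 (0.16), named after its value was seen. Of 8 receptor genes, the laminin-binding integrin gene Itga6 was lower at an unadjusted p under 0.05 (log2 difference -0.30, adjusted p = 0.162 in limma) and 0 were higher (median -0.14). A count of 1 on a list of 8 lies near the share of 8.68%. Of 4 further collagen genes tested, 0 had an unadjusted p under 0.05 (median -0.13).

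**Figure D5:**
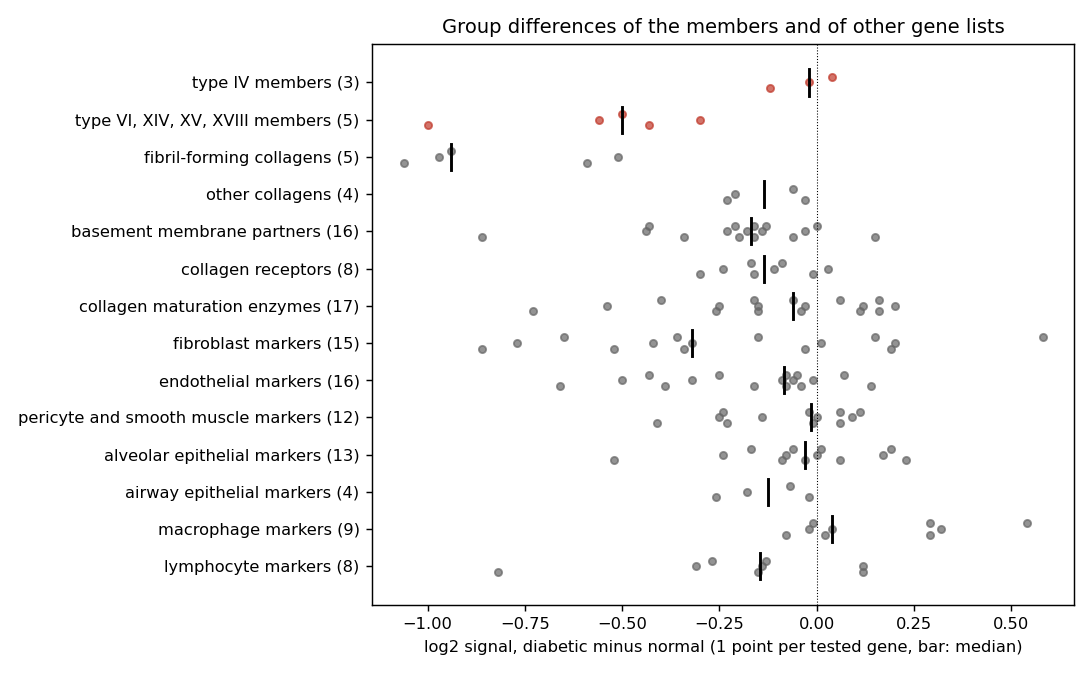
Difference in log2 signal, diabetic minus normal, of the 8 members (red) and of the genes tested in 12 other lists (grey), 1 point per gene on its brightest probe set, with the number tested in brackets and a bar at each median. The medians are -0.02 for type IV, -0.50 for types VI, XIV, XV and XVIII, and -0.94 for fibril-forming collagens, and 0 genes shown passed an adjusted p of 0.05.

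Markers of the cell types of the lung, those that make these collagens among them, were counted in the same way. The shares over all probe sets tested were again 8.68% lower and 7.75% higher at an unadjusted p under 0.05 in limma. On lists this short, a count of 1 or 2 genes lies near those shares. Of 15 fibroblast markers tested, 6 were lower and 2 higher at an unadjusted p under 0.05 and 0 passed the adjusted threshold in limma (median -0.32). Examples are the elastic fibre genes Mfap4 (-0.86) and Fbln5 (-0.52) and the proteoglycan gene Lum (-0.65) on the lower side and the growth factor receptor gene Pdgfra (0.58, adjusted p = 0.0552 in limma) on the higher side. The mean log2 signal of this list relative to normal was -0.08 to 0.08 in normal and -0.64 to -0.03 in diabetic animals, lowest in diabetic animal 6, and its summed signal was 29917 to 33549 and 22771 to 33310. Of 16 endothelial markers 6 were lower and 0 higher at an unadjusted p under 0.05 (median -0.08), led by Egfl7 (-0.32), Car4 (-0.43), Apln (-0.66) and Eng (-0.25). Their summed signal was 39461 to 43813 in normal and 35371 to 42672 in diabetic animals. Of 12 pericyte and smooth muscle markers 2 were lower, Notch3 (-0.23) and Rgs5 (-0.41), and 0 higher (median -0.01). Of 13 alveolar epithelial markers 2 were lower, Aqp5 (-0.52) and Ager (-0.24), and 2 higher, Hopx (0.23) and Slc34a2 (0.17), all at an unadjusted p under 0.05 (median -0.03). Among 4 airway epithelial, 9 macrophage and 8 lymphocyte markers, 0, 0 and 2 were lower and 0, 1 and 0 higher at that p, with medians of -0.13, 0.04 and -0.15. The lymphocyte genes were Cd79b (-0.82) and Cd4 (-0.31), and the macrophage gene was Csf1r (0.29). Over these 7 marker lists 0 genes passed the adjusted threshold in limma, and the part of cell composition in the differences of the collagens was not tested.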

How the data were processed

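Total RNA of whole lung from 5 normal and 7 diabetic rats had been measured on the Affymetrix RAE 230A array. The authors computed 1 signal per probe set from perfect match and mismatch probes with MAS 5.0 and deposited it as an intensity on a linear scale. On each array the mean without the lowest and highest 2% was 500.1. The number of arrays limits the precision. Here signals were transformed to log2 (1 value at or below 0 was set to 0.1), 57 control probe sets and the lowest 40% by mean log2 signal were left out, and the remaining 9520 were compared with limma 3.58.1 in R 4.3.3 (lmFit, eBayes with an intensity trend, two-sided, Benjamini-Hochberg over all). The methods' BAMarray was not used. Probe sets were named through the platform annotation, 12748 of them through Entrez ID with current symbols from RefSeq (GRCr8) and 35 under the symbol of the annotation, and 312 naming several genes stayed unnamed. The brightest probe set stood for its gene. Ratios and correlations were tested by exact permutation in python 3.11.15, and figures drawn with matplotlib 3.10.9. The limma and permutation steps were tested on simulated data.

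Members and lists were chosen with earlier results of these data known. Named were all members, from each list at most 4 genes, by p, and the 4 genes most like Col15a1 and Col4a1. Alternatives covered scaling, a pseudocount of 64, the filter (none, or 20%), the variance model, weights per array, a block for the replicate number, other probe sets and leaving out each animal. A model with the GAPDH ratio and 1 without diabetic animals 6 and 7 were chosen after seeing the data.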

Additional observations from a re-analysis of the deposited data

How the results depend on the processing

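Over 23 alternatives for each of the 8 genes, 175 of 184 log2 differences kept their direction and their side of an adjusted p of 0.05 in limma. The exceptions were the near-zero values of Col4a1 (-0.08 to 0.03 when each animal was left out in turn) and Col4a5 (-0.06 to 0.13), and, with the GAPDH 3' to 5' ratio as a covariate, Col4a5 (-0.46), Col6a3 (-1.11) and Col15a1 (-1.64); the cause was not tested. With that covariate 2 member probe sets passed the adjusted threshold, where 3.03% of all probe sets did, and 0 members passed under each other alternative. Leaving out 1 animal at a time gave 6 to 7 member probe sets with an unadjusted p under 0.05. Of the 15 ratios, 0 to 7 passed when 1 animal was left out (7 without diabetic animal 1, 3 without diabetic animal 4, 0 otherwise) and 6 passed with limma. With the replicate block, 5 same-numbered pairs cannot reach p under 0.05 in a sign-flip test, and 0 ratios passed. The correlations of chains kept their side of the threshold, with ranges without 1 animal of 0.945 to 0.99 (Col4a1 and Col4a2), 0.857 to 0.974 (Col6a1 and Col6a3) and 0.103 to 0.354 (Col15a1 and Col18a1).

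The number of all probe sets past the adjusted threshold of limma was 16. There were 25 after quantile normalization, 7 without the filter, 9 without the intensity trend, 80 with array weights, 288 with the GAPDH ratio, and 2 to 30 without 1 animal (2 without normal animal 2 or 4, 27 and 30 without diabetic animals 5 and 6, and 5 to 9 without normal animal 1 or 5 or diabetic animal 1, 2, 3 or 4). With the replicate number as a block there were 11. Deviations of same-numbered animals correlated at -0.123 to 0.038, and 1 of 5 normal animals correlated best with its own number, so the numbers were not taken to pair the animals.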

Other observations

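Genes whose log2 signals, as deviations from the group means, ran most nearly parallel to those of a member over the 12 arrays are given as a description. For Col15a1 they were Ldaf1, a lipid droplet assembly factor (Pearson's r = 0.918), the sorting nexin gene Snx19 (0.894), the phosphatidylinositol transfer gene Pitpnm2 (0.879) and the TNF receptor adaptor gene Traf3 (0.877). Among the members, r with Col15a1 was 0.698 for Col6a3, 0.654 for Col6a1, 0.65 for Col14a1, 0.222 for Col4a5, 0.179 for Col18a1, -0.17 for Col4a1 and -0.352 for Col4a2. For Col4a1 they were the calcineurin gene Ppp3cb (0.891), the endoplasmic reticulum gene Tmbim6 (0.875), Col4a2 (0.86) and the VEGF receptor gene Flt1 (0.84). The points of each r share their arrays, and the genes were taken from all tested probe sets that name 1 gene. The r of Flt1 is not that of its brightest probe set, for which no r is given.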
